A study of Mus musculus with 12 samples.

Results

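The p53 target genes described here are 35 genes that the tumour suppressor p53 is known to switch on or that regulate p53 itself, taken from a list by gene symbol. All 35 were found among the 21853 genes of the deposited table, which covers whole bone marrow of B6 mice (the C57BL/6 laboratory strain) in 4 groups of 3 libraries. Control mice were not irradiated. TBI mice were exposed to total body irradiation (TBI), a gamma-ray dose of 5 Gy delivered at 0.66 Gy/min, and then received 100 µL of olive oil by gavage as vehicle. TBI+DEIX mice had the same exposure and were given DEIX by mouth, and DEIX mice received DEIX without irradiation. DEIX stands for the deinoxanthin of the study's title, a carotenoid of bacteria, dosed daily at 25 mg/kg for 14 days. Marrow was taken 14 days after irradiation. Whether control mice had any gavage is not stated, no age or sex is given for any group, and the labels do not say that each library came from a separate mouse, so p-values measure only the spread between these libraries.

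The p53 protein is a transcription factor that is held at a low level by MDM2 and MDM4 and is stabilised when DNA breaks activate kinases such as ATM and CHEK2. It then binds response elements made of a pair of half-sites in its target genes, which stop the cell cycle, start apoptosis, repair DNA, adjust metabolism and, through Mdm2, feed back on p53. Blood-forming marrow is among the tissues most sensitive to radiation, and acute loss of marrow cells after irradiation is known to depend on p53. The question addressed by the 4 groups is how irradiation and DEIX, alone and together, changed marrow expression; for these genes it is how much of the p53 programme differed between groups at the end of the treatment.

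Promoters of 4 genes are shown because Cdkn1a, Mdm2, Ccng1 and Sesn1 carry much of what follows and each has a p53 half-site close to a start site. RefSeq promoter windows on GRCm38.p6 (250 bases before to 50 after a start) were found for 27 of the 35 genes; Pmaip1, Perp, Tnfrsf10b, Trp53inp1, Zmat3, Xpc, Ddb2 and Rrm2b were not matched. The 250 bases before the start are printed 5′ to 3′ on the gene's strand, for Cdkn1a chr17:29090729-29090978 (plus strand), for Mdm2 chr10:117710759-117711008 (minus strand), for Ccng1 chr11:40755287-40755536 (minus strand) and for Sesn1 chr10:41887189-41887438 (plus strand, a start inside the gene). Capitals mark matches to the p53 half-site consensus of 10 bases and, in Cdkn1a, also the paired core CATGNNNNNNCATG.
Cdkn1a: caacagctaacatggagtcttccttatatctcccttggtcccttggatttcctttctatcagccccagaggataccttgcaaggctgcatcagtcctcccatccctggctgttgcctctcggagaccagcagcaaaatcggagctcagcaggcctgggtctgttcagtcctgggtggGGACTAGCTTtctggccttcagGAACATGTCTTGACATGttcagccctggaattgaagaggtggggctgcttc
Mdm2: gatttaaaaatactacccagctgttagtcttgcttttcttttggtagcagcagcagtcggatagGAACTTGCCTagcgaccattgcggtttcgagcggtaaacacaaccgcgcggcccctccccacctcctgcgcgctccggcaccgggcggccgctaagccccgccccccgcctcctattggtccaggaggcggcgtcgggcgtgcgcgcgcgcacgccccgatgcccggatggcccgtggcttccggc
Ccng1: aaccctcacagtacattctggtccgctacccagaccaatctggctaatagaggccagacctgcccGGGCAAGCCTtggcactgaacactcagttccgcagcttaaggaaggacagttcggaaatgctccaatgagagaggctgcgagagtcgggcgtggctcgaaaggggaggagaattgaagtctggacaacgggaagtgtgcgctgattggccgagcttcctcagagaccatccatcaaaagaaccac
Sesn1: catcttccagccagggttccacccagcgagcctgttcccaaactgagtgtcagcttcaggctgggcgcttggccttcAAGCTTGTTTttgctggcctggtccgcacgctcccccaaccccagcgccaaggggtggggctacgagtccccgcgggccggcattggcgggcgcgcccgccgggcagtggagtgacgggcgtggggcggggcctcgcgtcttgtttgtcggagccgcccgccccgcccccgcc

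The half-site consensus was searched on both strands, which are equivalent because the pattern is palindromic. It was present in 12 of the 27 matched genes (Aen, Bax, Ccng1, Cdkn1a, Ckap2, Ei24, Gtse1, Mdm2, Polk, Rps27l, Sesn1 and Trp53) and in 8.46% of 16515 genes with such windows. Of the matched genes, 10 had more than 1 window, which gives more sequence to search. In Cdkn1a the half-sites GGACTAGCTT and GAACATGTCT began 73 and 51 bases before the printed start, with 12 bases between them. Another Cdkn1a window, at a start further downstream (chr17:29093519-29093818), held 0 half-sites. The other Sesn1 window (chr10:41810324-41810623) held 0 too. Pairs with a spacer of up to 13 bases were found in 0.054% of all genes, 9 in number, and among the 27 in Cdkn1a alone. The core CATGNNNNNNCATG, also palindromic and overlapping the second half-site there, was found in 0.757% of all genes and, of the 27, in Cdkn1a. The single half-sites GAACTTGCCT of Mdm2, GGGCAAGCCT of Ccng1 and AAGCTTGTTT of Sesn1 began 186, 185 and 173 bases before their starts. These are matches of letters and were not tested for binding.

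Values are FPKM, fragments per kilobase of transcript, scaled for library depth by the authors. Median-of-ratios factors, which bring libraries to a common median, were 0.993 to 1.01, so the deposited values already lay close to such a scale. Whether the authors applied a scaling between libraries was not tested. The libraries' FPKM summed to between 493683 and 848843, and 10359 to 10832 genes per library reached 1 FPKM. Depth was read from the FPKM worth of 1 fragment on a transcript of 1 kb, which was 0.0195 to 0.0275 in control, 0.0191 to 0.0254 in TBI, 0.0309 to 0.0457 in TBI+DEIX and 0.0240 to 0.0355 in DEIX. The TBI+DEIX libraries were therefore the shallowest as a group, and its replicate 1 stood apart: it held the highest or the lowest of the 12 values for 21 of 32 tested p53 target genes (65.6%) and for 52.8% of all tested genes. Defining markers of marrow cells were present in all groups, but the highly expressed neutrophil genes S100a8, S100a9 and Ngp were listed at 0 in 2, 4 and 5 libraries.

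**Figure D1:**
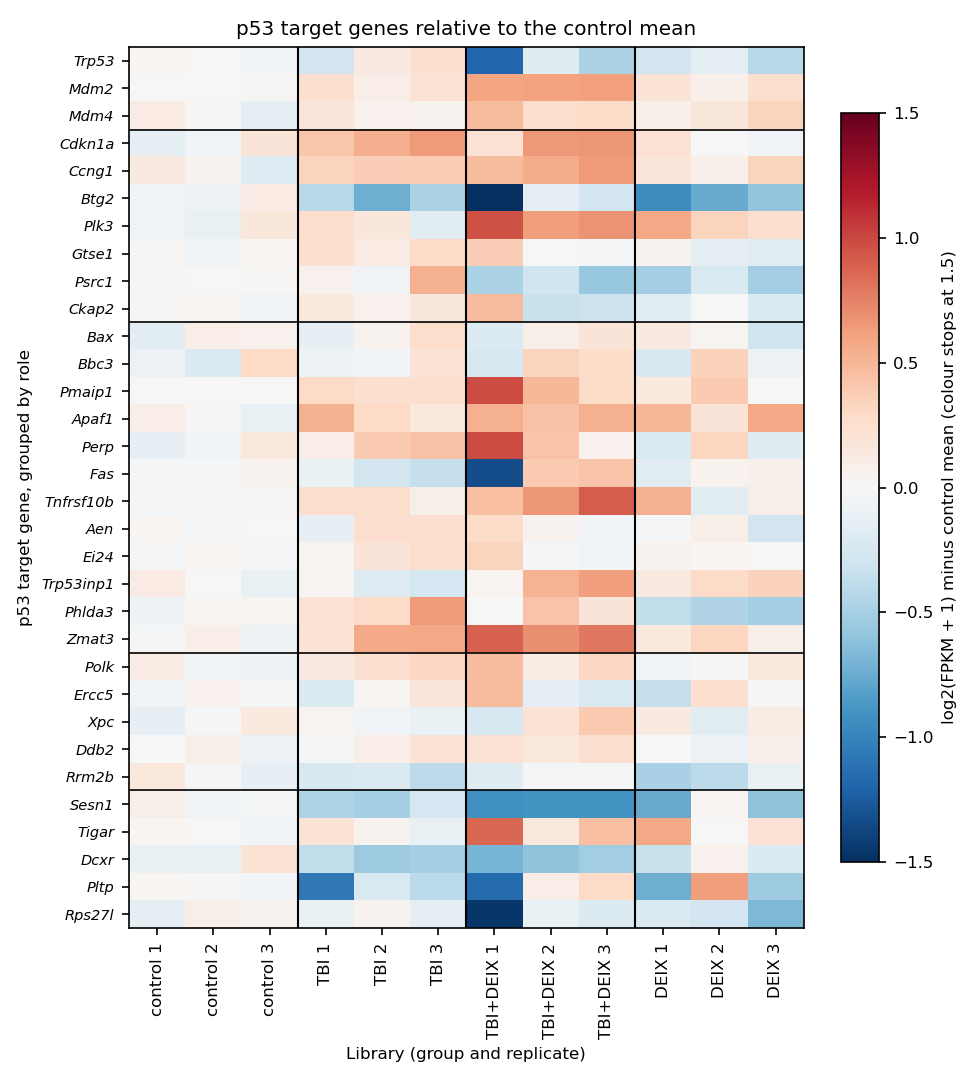
Each cell is log2(FPKM + 1) of 1 library minus the control mean, for the 32 tested p53 target genes (rows, grouped by role) in the 12 libraries (columns); red is higher and blue lower, and colours stop at 1.5. Mdm2, Ccng1, Zmat3 and Plk3 are red and Sesn1 and Dcxr blue across all 3 TBI+DEIX libraries, and replicate 1 of TBI+DEIX holds the darkest cells.

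Differences were tested for the 32 genes with at least 1 FPKM in at least 3 libraries, by limma across all 10994 such genes, with Benjamini-Hochberg adjustment over all of them; a gene was called at an adjusted p under 0.05. Changes are differences in log2(FPKM + 1), a scale that understates changes of low genes. Of the 32, 13 genes (40.6%) were called in at least 1 comparison, beside 32.3% of all tested genes, and 19 in none. The 13 include Phlda3, Tnfrsf10b and Zmat3, which had no library at 1 FPKM in the lower group of a comparison that called them. Passing the filter in that way favours such a call. In TBI against control 0 of 32 were called, where 3.99% of all tested genes were (0.891% higher, 3.1% lower); 9 had an unadjusted p under 0.05 (6 higher, 3 lower), beside 18.1% of all genes. In DEIX against control 0 of 32 were called, beside 7.24% of all genes (4.52% higher, 2.72% lower); 7 had an unadjusted p under 0.05 (3 higher, 4 lower), beside 24.7% of all genes. In bulk marrow, fewer cells of a type and less RNA per cell cannot be told apart in any of these differences.

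With both treatments together, 12 of 32 p53 target genes (37.5%) differed from control, where 30.0% of all tested genes did. Those higher were 9 (28.1%, against 16.9% of all genes): Mdm2, Zmat3, Ccng1, Plk3, Apaf1, Tnfrsf10b, Pmaip1, Cdkn1a and Mdm4. Tnfrsf10b and Zmat3 passed the expression filter with no control library at 1 FPKM; over genes with at least 1 such library, 7 of 29 were called higher (24.1%, against 16.5% of all such genes). Those lower were 3 (9.38%, against 13.1%): Sesn1, Dcxr and Psrc1. The median change of the 32 was 0.12, and that of all tested genes 0.02. The balance depended on scaling: when FPKM were rescaled to TPM, a unit that sums to the same total in every library, the median of all genes moved to −0.09 and that of the 32 to 0.01, and Tnfrsf10b and Zmat3 were called higher and Btg2, Rps27l, Sesn1, Dcxr and Trp53 lower, beside 16.2% of all genes called; Mdm2, Ccng1, Plk3, Apaf1, Pmaip1, Cdkn1a, Mdm4 and Psrc1 were not called there. Both genes called higher there are those that had no control library at 1 FPKM. Leaving out S100a8, S100a9 and Ngp before rescaling to TPM gave 5 higher and 5 lower, beside 23.2% of all genes. The calls of Zmat3, Sesn1 and Dcxr held under every alternative in which they were tested, though Zmat3 entered the tested genes with no control library at 1 FPKM.

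**Figure D2:**
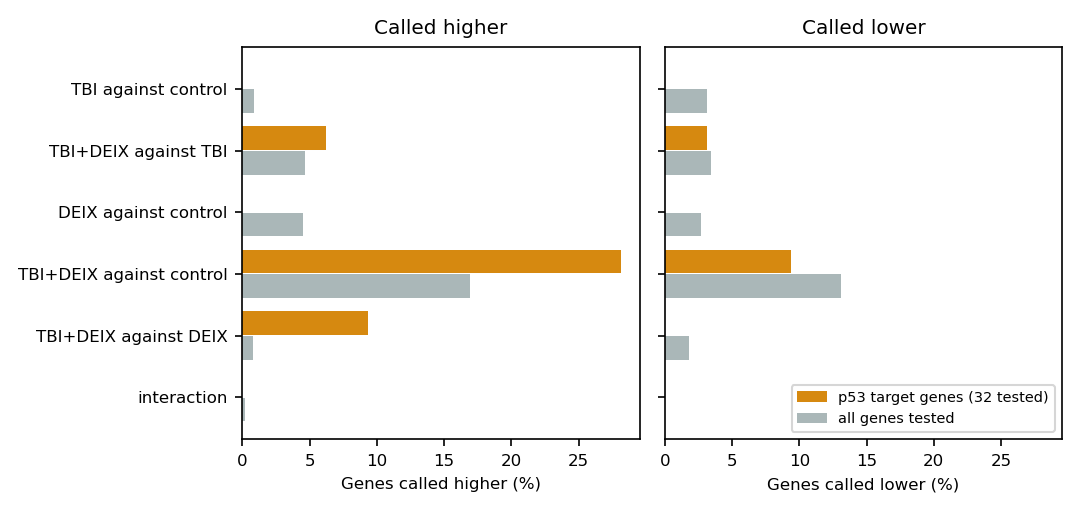
Bars give the percentage of genes called higher (left) or lower (right) in each of 6 comparisons, for the 32 tested p53 target genes (orange) and all 10994 tested genes (grey). The orange bar is the longer in TBI+DEIX against control (28.1% against 16.9%) and in TBI+DEIX against DEIX (9.38% against 0.81%, or 6.45% against 0.705% without Phlda3 and other genes that had no DEIX library at 1 FPKM), and slightly in TBI+DEIX against TBI (6.25% against 4.69%), all for higher genes; no orange bar appears for TBI or DEIX alone against control.

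The other comparisons share libraries with these, so their values are given side by side. TBI+DEIX against TBI, the effect of DEIX in irradiated mice, called 3 of 32 (9.38%, against 8.1% of all genes): Mdm2 and Plk3 higher, where 4.69% of all genes were, and Psrc1 lower, where 3.41% were. TBI+DEIX against DEIX, the effect of irradiation in mice given DEIX, called 3 of 32, all higher (Mdm2, Zmat3 and Phlda3), where 2.57% of all genes were called, 0.81% higher and 1.76% lower. Phlda3 passed the expression filter through irradiated libraries alone, 5 of 12 being at or above 1 FPKM, so it had to be higher there; without it 2 of 31 were called (6.45%). These few calls moved with single libraries. For TBI+DEIX against TBI, 0 were left without TBI replicate 3 or without TBI+DEIX replicate 3 (beside 0.0455% and 0.464% of all genes), 1 without TBI replicate 2 (3.14%), and 7 without TBI+DEIX replicate 1 (25.8%). For TBI+DEIX against DEIX, 0 were left without control replicate 2, TBI+DEIX replicate 2 or 3, or any 1 of the DEIX libraries (beside 0.455% to 1.81% of all genes), 1 without control replicate 1 or 3 or TBI replicate 2 (1.42% to 1.51%), and 7 without TBI+DEIX replicate 1 (8.43%). In both comparisons a fit on the compared groups alone called 0, and it called 0 of all genes. On the TPM scale all 6 of these calls were lost too, with 1.43% and 1.14% of all genes called in the 2 comparisons.

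Of the 3 regulators, Mdm2 and Mdm4 rose in TBI+DEIX against control, beside 16.9% of all genes, and Mdm2 had the lowest adjusted p of the 32 p53 target genes in that comparison. Mdm2 (ENSMUSG00000020184.15, chromosome 10, 117688875 to 117710758 on GRCm38, minus strand) encodes the ubiquitin ligase that degrades p53 and is itself switched on by p53. Its FPKM in replicates 1 to 3 was 28.2, 28.2 and 28.6 in control, 33.5, 30.5 and 33.2 in TBI, 43.1, 43.7 and 43.8 in TBI+DEIX, and 32.8, 29.8 and 33.9 in DEIX. Every TBI+DEIX library was above every other library, and all TBI and DEIX libraries were above all control libraries, while TBI and DEIX overlapped. Mdm2 rose in TBI+DEIX against control by 0.60 (SE 0.08, limma adjusted p = 0.000512), against TBI by 0.42 (SE 0.08, adjusted p = 0.0196) and against DEIX by 0.43 (SE 0.08, adjusted p = 0.0216). All 3 calls were lost on the TPM scale, the first with a change of 0.48 (adjusted p = 0.0913), the others at adjusted p = 0.470 and 0.417; the others were also lost on the TPM scale without S100a8, S100a9 and Ngp and in fits of the compared groups alone. The first was lost in no fit without 1 library. The second was lost without TBI replicate 2 or 3 or TBI+DEIX replicate 3 (adjusted p from 0.0555 to 0.0849), and the third without control replicate 2, TBI+DEIX replicate 2 or 3 or any DEIX library (0.0510 to 0.0804). TBI alone against control gave 0.19 (adjusted p = 0.244) and DEIX alone 0.18 (adjusted p = 0.201), neither called.

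Mdm4, which holds p53 inactive by binding its activation domain, was measured at 50.7, 47.3 and 42.3 FPKM in control, 52.9, 48.7 and 48.3 in TBI, 65.2, 56.4 and 56.8 in TBI+DEIX, and 49.4, 52.6 and 58.8 in DEIX. The TBI+DEIX libraries were above all control and TBI libraries and overlapped DEIX. Mdm4 rose in TBI+DEIX against control by 0.34 (SE 0.10, limma adjusted p = 0.0307), a call that was lost without control replicate 2 or 3 or TBI+DEIX replicate 1 (adjusted p from 0.0519 to 0.114). Trp53, the p53 gene (ENSMUSG00000059552.13, chromosome 11, 69580359 to 69591873), was measured at 67.6, 66.3 and 64.1 FPKM in control, 54.3, 72.4 and 78.1 in TBI, 28.4, 58.0 and 47.0 in TBI+DEIX, and 53.8, 59.6 and 49.4 in DEIX. All TBI+DEIX and DEIX libraries were below all control libraries, and TBI overlapped control. The difference of TBI+DEIX from control was −0.62 (SE 0.22, limma adjusted p = 0.0537), just outside the threshold; it was called without TBI replicate 1 (adjusted p = 0.0490) or TBI+DEIX replicate 2 (adjusted p = 0.0142), on both TPM scales, with median-of-ratios scaling and with array weights.

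**Figure D3:**
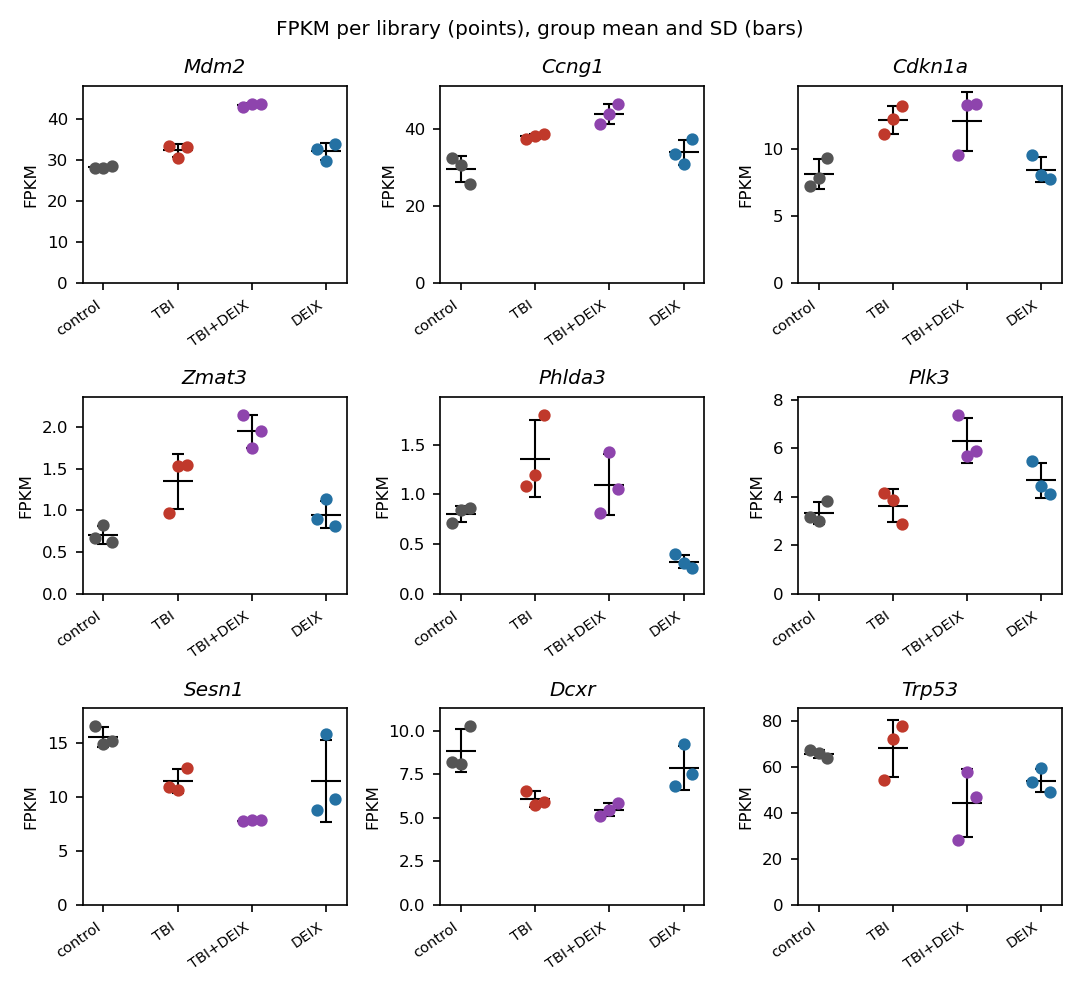
FPKM of 9 p53 target genes in each library (points), with the group mean and SD (bars), for control, TBI, TBI+DEIX and DEIX; axes start at 0. TBI+DEIX libraries of Mdm2 lie between 43.1 and 43.8, above the 9 other libraries, and those of Sesn1 between 7.74 and 7.86, below the 9 others.

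Of the 8 genes of cell cycle arrest and growth control, 7 were tested; in TBI+DEIX against control Ccng1, Cdkn1a and Plk3 rose and Psrc1 fell, beside 16.9% and 13.1% of all genes. Cdkn1a (ENSMUSG00000023067.14, chromosome 17, 29090976 to 29100727, plus strand) encodes p21, the inhibitor of cyclin-dependent kinases through which p53 stops the cycle in G1. It was measured at 7.25, 7.85 and 9.38 FPKM in control, 11.1, 12.3 and 13.2 in TBI, 9.58, 13.3 and 13.4 in TBI+DEIX, and 9.56, 8.11 and 7.81 in DEIX. All irradiated libraries were above all unirradiated ones, by only 0.0208 FPKM between TBI+DEIX replicate 1 and DEIX replicate 1. Cdkn1a rose in TBI+DEIX against control by 0.51 (SE 0.14, limma adjusted p = 0.0211), but the call was lost without control replicate 1 or 2 or TBI+DEIX replicate 2 or 3 (adjusted p from 0.0633 to 0.0795). TBI alone gave a difference of about the same size, 0.53 (SE 0.14, adjusted p = 0.0685), and it was called without TBI+DEIX replicate 1 (adjusted p = 0.0101). TBI+DEIX and TBI differed by −0.02 (SE 0.14, adjusted p = 0.934). In the annotation, 7.7% of its exonic bases overlap AC167363.2 on the opposite strand.

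Ccng1, the gene of cyclin G1, a p53 target that acts with MDM2 (ENSMUSG00000020326.7, chromosome 11, 40748552 to 40755311, minus strand), was measured at 32.3, 30.6 and 25.7 FPKM in control, 37.3, 38.1 and 38.5 in TBI, 41.0, 43.8 and 46.4 in TBI+DEIX, and 33.3, 30.9 and 37.2 in DEIX. All TBI+DEIX libraries were above all TBI libraries, and these above all control and DEIX libraries, with control and DEIX overlapping. Ccng1 rose in TBI+DEIX against control by 0.56 (SE 0.10, limma adjusted p = 0.00308), a call kept without any 1 library and lost on the TPM scale (change 0.44, adjusted p = 0.116). In TBI against control its difference was 0.36 (SE 0.10, adjusted p = 0.0908), called without TBI+DEIX replicate 1 (adjusted p = 0.0354).

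Plk3, which encodes a stress-activated kinase, was highest in TBI+DEIX. It was measured at 3.18, 3.00 and 3.85 FPKM in control, 4.18, 3.89 and 2.88 in TBI, 7.39, 5.67 and 5.91 in TBI+DEIX, and 5.49, 4.45 and 4.13 in DEIX. TBI and control overlapped, DEIX lay above control, and TBI+DEIX lay above every other library. Plk3 rose in TBI+DEIX against control by 0.75 (SE 0.15, limma adjusted p = 0.00400) and against TBI by 0.66 (SE 0.15, adjusted p = 0.0280). The first call held without any 1 library and was lost on the TPM scale (change 0.70, adjusted p = 0.0693); the second was lost there (adjusted p = 0.237), on the TPM scale without S100a8, S100a9 and Ngp, with the compared groups alone, and without TBI replicate 2 or 3 or TBI+DEIX replicate 3 (adjusted p from 0.0561 to 0.129). DEIX alone against control gave 0.39 (adjusted p = 0.137), not called.

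Psrc1, a microtubule-associated gene of dividing cells, was measured at 7.63, 7.72 and 7.87 FPKM in control, 8.16, 7.46 and 11.7 in TBI, 5.28, 6.08 and 4.91 in TBI+DEIX, and 5.12, 6.44 and 5.16 in DEIX. Both groups given DEIX were below both groups that were not, without overlap. It fell in TBI+DEIX against TBI by 0.63 on the log2 scale (SE 0.15, limma adjusted p = 0.0324), a call lost without control replicate 1 or 2, TBI replicate 3 or TBI+DEIX replicate 3 (adjusted p from 0.0536 to 0.120). It fell against control by 0.45 (SE 0.15, adjusted p = 0.0426), a call lost in 8 of 12 fits without 1 library (up to 0.115), those without any control library, TBI replicate 1, TBI+DEIX replicate 1 or 3, or DEIX replicate 1 or 3. The summed FPKM of 10 proliferation genes was 1143 to 1172 in control, 1226 to 1477 in TBI, 906 to 1040 in TBI+DEIX and 952 to 1110 in DEIX, the same split of groups; its part in the Psrc1 result was not tested.

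The other genes of this role were not called in any comparison. Btg2, an antiproliferative gene, was measured at 114, 110 and 128 FPKM in control, 87.6, 70.2 and 84.0 in TBI, 26.1, 106 and 95.5 in TBI+DEIX, and 60.2, 68.9 and 77.5 in DEIX. All 9 treated libraries were below all 3 control libraries, and TBI+DEIX replicate 1 was far below the rest, with a difference of TBI+DEIX from control of −0.85 (SE 0.40, limma adjusted p = 0.131). Without that library Btg2 was called lower in TBI against control and in DEIX against control, and higher in TBI+DEIX against DEIX, where the difference over all libraries was −0.09; without TBI+DEIX replicate 2 it was called lower in TBI+DEIX against control (adjusted p = 0.0429). Gtse1, which moves p53 out of the nucleus, was 13.4 to 14.2 FPKM in control and 15.2 to 17.2 in TBI, and Ckap2, a spindle gene, 16.7 to 17.6 and 18.1 to 19.5; neither pair overlapped.

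Of 13 death effectors and death receptors, 12 were tested. In TBI+DEIX against control Zmat3, Tnfrsf10b, Pmaip1 and Apaf1 rose and 0 fell, beside 16.9% and 13.1% of all genes. Of those that rose, Pmaip1 and Apaf1 alone had a control library at 1 FPKM, and 16.5% of all genes with such a library were called higher. Zmat3, an RNA-binding tumour suppressor (ENSMUSG00000027663.12, chromosome 3, 32334792 to 32366014, minus strand), was measured at 0.672, 0.820 and 0.616 FPKM in control, 0.967, 1.53 and 1.55 in TBI, 2.14, 1.75 and 1.95 in TBI+DEIX, and 0.900, 1.13 and 0.815 in DEIX. TBI+DEIX was above all other libraries and TBI above control, and DEIX overlapped both. Zmat3 rose in TBI+DEIX against control by 0.79 (SE 0.13, limma adjusted p = 0.00144), a 2.77-fold difference of mean FPKM. It rose against DEIX by 0.60 (SE 0.13, adjusted p = 0.0357), a call lost in 9 of 12 fits without 1 library, those without any control or DEIX library, TBI replicate 2 or TBI+DEIX replicate 2 or 3 (adjusted p from 0.0550 to 0.130). TBI against control gave 0.46 (SE 0.13, adjusted p = 0.0810), called without TBI replicate 1 (adjusted p = 0.0418) or TBI+DEIX replicate 1 (0.0364). At these levels a library held roughly 198 to 625 fragments of Zmat3, estimated from its longest transcript.

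Tnfrsf10b, the mouse receptor of the death ligand TRAIL, was measured at 0.364, 0.410 and 0.410 FPKM in control, 0.679, 0.680 and 0.485 in TBI, 0.900, 1.21 and 1.62 in TBI+DEIX, and 1.01, 0.238 and 0.482 in DEIX. TBI+DEIX was above TBI and TBI above control, while DEIX reached from the lowest of all 12 libraries into the range of TBI+DEIX. Tnfrsf10b rose in TBI+DEIX against control by 0.67 (SE 0.17, limma adjusted p = 0.0146), a call lost without TBI+DEIX replicate 3 (adjusted p = 0.0534). It passed the filter through the TBI+DEIX and DEIX libraries alone, 3 of 12 being at or above 1 FPKM.

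Pmaip1, the BH3-only gene of NOXA, was measured at 4.27, 4.24 and 4.25 FPKM in control, 5.44, 5.18 and 5.28 in TBI, 9.39, 6.40 and 5.38 in TBI+DEIX, and 4.83, 5.89 and 4.24 in DEIX. Both irradiated groups were above all control libraries and overlapped each other, and DEIX reached into both. It rose in TBI+DEIX against control by 0.59 (SE 0.16, limma adjusted p = 0.0199), a call lost without any 1 of the control libraries (adjusted p from 0.0543 to 0.0615). Without TBI+DEIX replicate 1, the highest library, the change was 0.39. Apaf1, the scaffold of the apoptosome, was 27.9, 26.4 and 23.9 FPKM in control, 38.2, 32.2 and 29.3 in TBI, 38.1, 35.5 and 38.1 in TBI+DEIX, and 37.0, 29.9 and 39.4 in DEIX. Here every treated library was above every control library and the 3 treated groups overlapped. Apaf1 rose in TBI+DEIX against control by 0.50 (SE 0.12, limma adjusted p = 0.0122), a call lost without control replicate 3 (adjusted p = 0.0509). DEIX against control gave 0.42 (SE 0.12, adjusted p = 0.0655), called without TBI replicate 1, TBI+DEIX replicate 1 or DEIX replicate 2 (adjusted p from 0.0294 to 0.0486), and TBI against control gave 0.33 (adjusted p = 0.183).

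Phlda3, which encodes a repressor of AKT signalling (ENSMUSG00000041801.5, chromosome 1, 135766119 to 135769136, plus strand), was lowest in DEIX. It was measured at 0.712, 0.846 and 0.861 FPKM in control, 1.08, 1.19 and 1.80 in TBI, 0.811, 1.43 and 1.06 in TBI+DEIX, and 0.398, 0.316 and 0.263 in DEIX. DEIX was below all other libraries and TBI above all control libraries, with TBI+DEIX overlapping control and TBI. Phlda3 rose in TBI+DEIX against DEIX by 0.65 (SE 0.14, limma adjusted p = 0.0377), a 3.38-fold difference of mean FPKM, and the call was lost in 9 of 12 fits without 1 library, the same libraries as for Zmat3 (adjusted p from 0.0590 to 0.130). DEIX against control gave −0.45 (SE 0.14, adjusted p = 0.0813), called without TBI+DEIX replicate 1 (adjusted p = 0.0317). The DEIX libraries held roughly 14 to 19 fragments of Phlda3, against 44 to 63 in control, so counting error is large there.

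The remaining tested death genes were not called. Bax, the pore-forming effector of mitochondrial apoptosis, was measured at 30.8, 37.1 and 36.4 FPKM in control, 31.8, 35.9 and 41.8 in TBI, 29.9, 37.0 and 39.9 in TBI+DEIX, and 38.3, 35.6 and 28.0 in DEIX. Its 4 groups overlapped, and the difference of TBI from control was 0.06 (SE 0.15, limma adjusted p = 0.864). In the annotation 12.2% of its exonic bases are shared with Gm45808 on the same strand. Bbc3, the gene of the BH3-only protein PUMA, was 2.90, 2.55 and 4.09 FPKM in control, 2.93, 3.02 and 3.74 in TBI, 2.51, 4.22 and 3.98 in TBI+DEIX, and 2.51, 4.23 and 2.88 in DEIX, again with every group overlapping the others. Trp53inp1, which promotes p53-dependent death and autophagy, was 54.7 to 67.8 FPKM in TBI and 68.1 to 103 in TBI+DEIX, without overlap, and the difference of 0.54 (SE 0.15, adjusted p = 0.0522) missed the threshold. It was called without TBI replicate 1 (adjusted p = 0.0481) or TBI+DEIX replicate 1 (adjusted p = 0.00474). Fas, the death receptor, was 3.65 FPKM in TBI+DEIX replicate 1 and 14.3 and 14.8 in replicates 2 and 3, the lowest and the highest 2 of all 12 libraries, so its group mean of 10.9 (SD 6.30) describes none of them. Aen, Ei24 and Perp ranged from 5.10 to 8.05, 25.0 to 32.7 and 1.04 to 3.69 FPKM, each with its highest value in that same replicate 1.

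None of the 5 genes of DNA repair and nucleotide supply was called in any of the 6 comparisons by limma; of their 30 tests, 4 had an unadjusted p under 0.05 (Rrm2b in 3 comparisons and Polk in TBI+DEIX against control), beside 22.6% of the tests of all genes. Ddb2 and Xpc, which recognise damage for nucleotide excision repair, lay between 6.49 and 8.44 and between 16.0 and 25.4 FPKM. Ddb2 was above all control and all DEIX libraries in TBI+DEIX (7.87 to 8.44 FPKM, change against control 0.20, adjusted p = 0.134), and 23.8% of its exonic bases overlap Acp2 on the opposite strand. Polk, a translesion polymerase, was 1.92 to 2.31 FPKM in control and 2.36 to 2.79 in TBI. Ercc5, an excision nuclease, lay between 2.30 and 4.86 FPKM with all groups overlapping. Rrm2b, the p53-inducible subunit of ribonucleotide reductase, was 12.1, 10.5 and 9.83 FPKM in control, 8.94, 9.10 and 7.98 in TBI, 9.37, 10.6 and 10.5 in TBI+DEIX, and 7.43, 7.996 and 9.94 in DEIX. Its TBI libraries were below all control and all TBI+DEIX libraries.

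Among metabolism, stress signalling and other targets, 5 of 6 were tested, and in TBI+DEIX against control Sesn1 and Dcxr fell and 0 rose, beside 13.1% and 16.9% of all genes. Sesn1 (ENSMUSG00000038332.13, chromosome 10, 41809935 to 41908424, plus strand) encodes sestrin 1, a stress-induced inhibitor of mTORC1. It was measured at 16.6, 14.9 and 15.2 FPKM in control, 10.96, 10.7 and 12.7 in TBI, 7.74, 7.85 and 7.86 in TBI+DEIX, and 8.81, 15.8 and 9.85 in DEIX. TBI+DEIX was below all other libraries and TBI below control, while DEIX replicate 2 lay with the control libraries and the other two below TBI. Sesn1 fell in TBI+DEIX against control by 0.91 on the log2 scale (SE 0.17, limma adjusted p = 0.00290), to 0.503 of the control mean FPKM. TBI against control gave −0.41 (SE 0.17, adjusted p = 0.226) and TBI+DEIX against TBI −0.50 (SE 0.17, adjusted p = 0.0892), both called without DEIX replicate 2 (adjusted p = 0.0425 and 0.0177). Dcxr, a reductase of dicarbonyls and L-xylulose, was measured at 8.20, 8.12 and 10.3 FPKM in control, 6.57, 5.75 and 5.93 in TBI, 5.08, 5.47 and 5.85 in TBI+DEIX, and 6.81, 9.25 and 7.53 in DEIX. All irradiated libraries were below all unirradiated ones. Dcxr fell in TBI+DEIX against control by 0.60 (SE 0.13, limma adjusted p = 0.00518), and its difference in TBI against control was −0.47 (SE 0.13, adjusted p = 0.0675), called without TBI+DEIX replicate 1 (adjusted p = 0.0277) or DEIX replicate 2 (0.0457).

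Tigar, a fructose bisphosphatase that lowers glycolysis, was 2.23 to 2.40 FPKM in control and 2.72 to 5.04 in TBI+DEIX, without overlap, with a change of 0.49 (SE 0.19, limma adjusted p = 0.0689), called without TBI+DEIX replicate 2 (adjusted p = 0.0248) and with array weights (0.0370). Rps27l, a ribosomal protein gene with the close paralog Rps27, was 164 to 193 FPKM in control and 65.1 to 169 in TBI+DEIX, where replicate 1 was the lowest of all 12 libraries. Pltp, a phospholipid transfer protein, was spread from 4.63 to 18.3 FPKM, as widely within TBI+DEIX and DEIX as between groups, and 19.3% of its exonic bases overlap Ctsa on the opposite strand.

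Plk2, Eda2r and Gdf15 did not reach the expression filter and were called in no comparison when it was dropped. Gdf15, a secreted stress factor, was 0.385, 0.466 and 0.555 FPKM in control, 0.345, 0.605 and 0.675 in TBI, 0.199, 1.45 and 0.259 in TBI+DEIX, and 0.0728, 0.107 and 0.0791 in DEIX. The DEIX libraries were below all others, at roughly 3 to 7 fragments each, and the change against control of −0.43 (SE 0.23, limma without the filter, adjusted p = 0.329) was not called. Plk2, a kinase, was 0.732 to 1.04 FPKM in control and 0.405 to 0.546 in TBI. Eda2r, a receptor of ectodysplasin, was 0.0370, 0.0909 and 0.0256 FPKM in control, 0.0608, 0.0767 and 0.142 in TBI, 0.291, 0.142 and 0.0918 in TBI+DEIX, and 0.0183, 0.0409 and 0.0342 in DEIX. TBI+DEIX lay above all control and all DEIX libraries, TBI overlapped control, and all libraries held roughly 2 to 30 fragments.

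TBI against control and TBI+DEIX against DEIX both set irradiated against unirradiated libraries, without and with DEIX, and share no library. TBI mice also had olive oil by gavage, and whether control mice had any gavage is not stated. In TBI against control, vehicle and irradiation therefore cannot be told apart. A gene was counted where the irradiated and unirradiated libraries did not overlap in either comparison and lay the same way. Mdm2, Ccng1, Cdkn1a, Zmat3 and Phlda3 were higher in both (5 of 32, 15.6%, beside 4.49% of all tested genes), and Sesn1 and Dcxr lower in both (2 of 32, 6.25%, beside 4.15%). Phlda3 entered the tested genes through irradiated libraries alone, so the count over genes with an unirradiated library at 1 FPKM is 4 of 31 (12.9%, beside 4.41% of all such genes). Zmat3, among these, had no control library at 1 FPKM, and over genes with one the count is 3 of 29 (10.3%, beside 4.3%). In TBI against control alone, 11 of 32 were higher without overlap (34.4%, beside 22.0% of all genes) and 6 lower (18.8%, beside 16.3%). In TBI+DEIX against DEIX, 7 were higher (21.9%, beside 8.72%) and 2 lower (6.25%, beside 8.96%). The remaining comparisons share groups with these: the libraries did not overlap for 8 higher and 2 lower in TBI+DEIX against TBI (beside 14.5% and 12.7% of all genes), 4 higher and 5 lower in DEIX against control (23.4% and 17.2%), and 11 higher and 5 lower in TBI+DEIX against control (23.9% and 21.1%). Without genes that had no library at 1 FPKM in the lower group, the higher counts were 8 of 29 in TBI against control (27.6%, beside 21.7% of all such genes), 6 of 31 in TBI+DEIX against DEIX (19.4%, beside 8.49%), 7 of 31 in TBI+DEIX against TBI (22.6%, beside 14.4%), 4 of 29 in DEIX against control (13.8%, beside 23.1%) and 9 of 29 in TBI+DEIX against control (31.0%, beside 23.5%). The lower counts became 6 of 31 (19.4%, beside 14.9%), 2 of 32 (6.25%, beside 7.96%), 2 of 32 (6.25%, beside 12.2%), 4 of 31 (12.9%, beside 16.1%) and 5 of 32 (15.6%, beside 19.5%) in the same order. On the TPM scale the count in both was 4 higher (Tnfrsf10b, Cdkn1a, Zmat3 and Phlda3, beside 1.12% of all genes) and 0 lower (beside 2.51%), so that Mdm2, Ccng1, Sesn1 and Dcxr were no longer counted. Of those 4, Cdkn1a alone had a control library at 1 FPKM (1 of 29, 3.45%, beside 0.94% of all such genes).

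**Figure D4:**
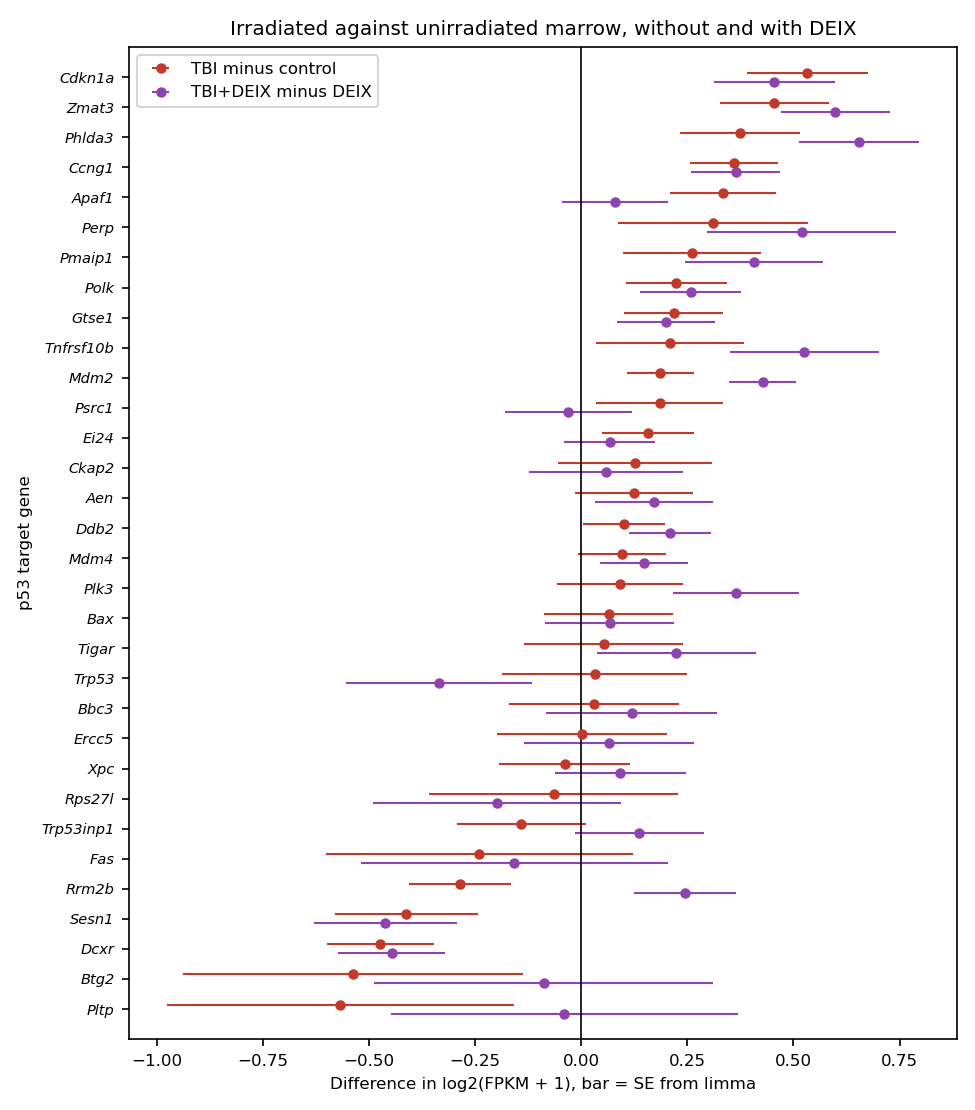
Points give the difference in log2(FPKM + 1) between irradiated and unirradiated libraries, TBI minus control (red) and TBI+DEIX minus DEIX (purple), for the 32 tested p53 target genes; bars are the standard error from limma. Cdkn1a (0.53 and 0.46), Ccng1 (0.36 and 0.36) and Dcxr (−0.47 and −0.45) have nearly equal points, whereas Rrm2b lies on opposite sides of 0.

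The interaction, the effect of DEIX in irradiated mice minus its effect in unirradiated mice, tested whether those 2 comparisons differ, a possible vehicle effect in TBI included. It called 0 of 32 p53 target genes by limma, beside 0.2% of all tested genes (0.191% higher, 0.0091% lower). The 1 gene with an unadjusted p under 0.05 was Rrm2b, at 0.53 (SE 0.17, adjusted p = 0.372). Mdm2 gave 0.24 (SE 0.11, adjusted p = 0.687), Phlda3 0.28 (SE 0.20, adjusted p = 0.896) and Cdkn1a −0.08 (SE 0.20, adjusted p = 0.999). A difference between the irradiation effects without and with DEIX was therefore not detected in any of the 32 genes, which does not show that the effects were alike. Without TBI+DEIX replicate 1, Btg2 and Fas were called, both higher.

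A further 2 lists of the pathway were read in the same fit. Of 25 other p53 targets 19 were tested, and 0 were called in TBI against control or DEIX against control, with 4 at an unadjusted p under 0.05 in each; of all genes 3.99% and 7.24% were called, and 18.1% and 24.7% had such a p. Against control, 4 of the 19 were called in TBI+DEIX, beside 30.0% of all genes: Sfn and Dram1 rose (16.9% of all genes did), whereas Trp53i13 and Siva1 fell (13.1%). The changes were 0.50 for Dram1 (SE 0.12, limma adjusted p = 0.00897), −0.65 for Trp53i13 (SE 0.14, adjusted p = 0.00558) and −0.60 for Siva1 (SE 0.19, adjusted p = 0.0358). The Siva1 call was lost without control replicate 2 or 3, TBI replicate 2 or TBI+DEIX replicate 1 or 3 (adjusted p from 0.0509 to 0.140), and that of Dram1 on the TPM scale. Sfn, which encodes 14-3-3 sigma, a p53-induced block to mitosis, was measured at 9.10, 9.74 and 12.4 FPKM in control, 10.6, 10.2 and 12.3 in TBI, 23.8, 17.3 and 20.2 in TBI+DEIX, and 10.5, 11.7 and 12.2 in DEIX. It was higher in TBI+DEIX than in every other library, as Mdm2 and Zmat3 were, and rose against control by 0.91 (SE 0.14, limma adjusted p = 0.00111), against TBI by 0.83 (SE 0.14, adjusted p = 0.0168) and against DEIX by 0.77 (SE 0.14, adjusted p = 0.0201). The second of these calls was lost without TBI replicate 3 or TBI+DEIX replicate 3 (adjusted p up to 0.0650) and the third without any 1 of the DEIX libraries (up to 0.0674). Both were also lost on either TPM scale and with the compared groups alone (up to 0.144 and 0.182), and the call against control under none of the alternatives. Steap3, a metalloreductase, fell in TBI+DEIX against TBI by 1.05 (SE 0.29, adjusted p = 0.0480), a call lost in 9 of 12 fits without 1 library (up to 0.203), those without any control library, TBI replicate 2 or 3, TBI+DEIX replicate 1 or 3, or DEIX replicate 1 or 3.

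Of 20 activators and modifiers of p53, all tested, Daxx fell in TBI against control by 0.42 (SE 0.09, limma adjusted p = 0.0217). That call was lost without any 1 control or TBI library (adjusted p from 0.0501 to 0.101) and on either TPM scale (up to 0.364). In TBI+DEIX against control 3 of the 20 rose (Kat5, Cop1 and Ep300, beside 16.9% of all genes) and 4 fell (Pml, Chek2, Rpl5 and Rpl11, beside 13.1%). The changes were 0.42, 0.47 and 0.51 for Kat5, Cop1 and Ep300 and −0.40, −0.46 and −0.71 for Chek2, Rpl5 and Rpl11 (SE 0.10 to 0.23, limma adjusted p from 0.0102 to 0.0358). The calls of Kat5, Ep300 and Pml held without any 1 library, and on the TPM scale Kat5, Cop1, Ep300 and Chek2 were not called. Cop1 was lost without control replicate 2 or 3 or TBI+DEIX replicate 3, Rpl5 without control replicate 1 or 2, Chek2 without any control library or TBI+DEIX replicate 1 or 3, and Rpl11 without any control library, TBI replicate 2 or TBI+DEIX replicate 1. Pml, the organiser of nuclear bodies where p53 is modified, was measured at 36.2, 34.6 and 35.8 FPKM in control, 25.5, 24.05 and 31.6 in TBI, 14.6, 18.9 and 18.5 in TBI+DEIX, and 18.3, 21.04 and 22.3 in DEIX. All treated libraries were below control, and both DEIX groups below TBI. Pml fell in DEIX against control by 0.77 (SE 0.13, adjusted p = 0.00819), in TBI+DEIX against TBI by 0.61 (SE 0.13, adjusted p = 0.0225) and in TBI+DEIX against control by 1.00 (SE 0.13, adjusted p = 0.000472). The checkpoint kinases Chek1 and Chek2 fell in TBI+DEIX against TBI by 0.59 (SE 0.13, adjusted p = 0.0276) and 0.62 (SE 0.12, adjusted p = 0.0203), and Kat5, an acetyltransferase of p53, rose by 0.37 (SE 0.10, adjusted p = 0.0488). These are 1 of 20 higher and, with Pml, 3 of 20 lower, beside 4.69% and 3.41% of all genes. All 4 calls were lost on the TPM scale (adjusted p from 0.0641 to 0.499), with the compared groups alone, and in fits that left out TBI replicate 3 or TBI+DEIX replicate 3; Chek1 was also lost without control replicate 2 or TBI replicate 2, and Kat5 in 11 of 12 fits, all but the one without TBI+DEIX replicate 1.

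Summed expression of marker genes differed between groups, and cell counts are not among these data. Summed FPKM of 7 stem and progenitor genes was 52.3 to 55.9 in control, 23.0 to 28.3 in TBI, 15.2 to 28.6 in TBI+DEIX and 40.0 to 55.3 in DEIX, so that it was lower in all irradiated than in all unirradiated libraries, as Dcxr was. The 5 megakaryocyte and platelet genes summed to 104 to 160, 23.1 to 43.4, 21.03 to 38.1 and 58.1 to 97.7 in the same order, again lower in all irradiated libraries. The sum of 10 B lineage genes was 395 to 476 in control, 29.5 to 359 in TBI, 6.95 to 181 in TBI+DEIX and 61.6 to 97.5 in DEIX, lower than control in every treated library, as Btg2 was. The sum of 12 found erythroid genes of 13 listed was 4824 to 7917, 2531 to 12279, 280 to 2267 and 1928 to 11376 in the same order, lowest in TBI+DEIX replicate 1. The sum of 8 maturing neutrophil genes, without S100a8, S100a9 and Ngp, was 21521 to 30127, 25213 to 31288, 20409 to 52019 and 25710 to 35829, with TBI+DEIX replicates 2 and 3 above and replicate 1 below all other libraries. The 8 monocyte and macrophage genes summed to 1818 to 1861, 1248 to 1968, 729 to 2571 and 2077 to 2428, with the lowest and the highest value in TBI+DEIX replicates 1 and 3. The 4 promyelocyte genes summed to 2749 to 3901, 1805 to 3517, 1704 to 2953 and 3012 to 4820, the 7 found T and NK cell genes of 8 to 145 to 179, 93.9 to 134, 50.8 to 137 and 121 to 186, and the 7 genes of stroma, bone and endothelium to 27.5 to 32.7, 18.8 to 37.7, 17.9 to 24.7 and 12.1 to 20.6, lower in both groups given DEIX than in control. The part of these differences in the p53 target results was not tested.

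**Figure D5:**
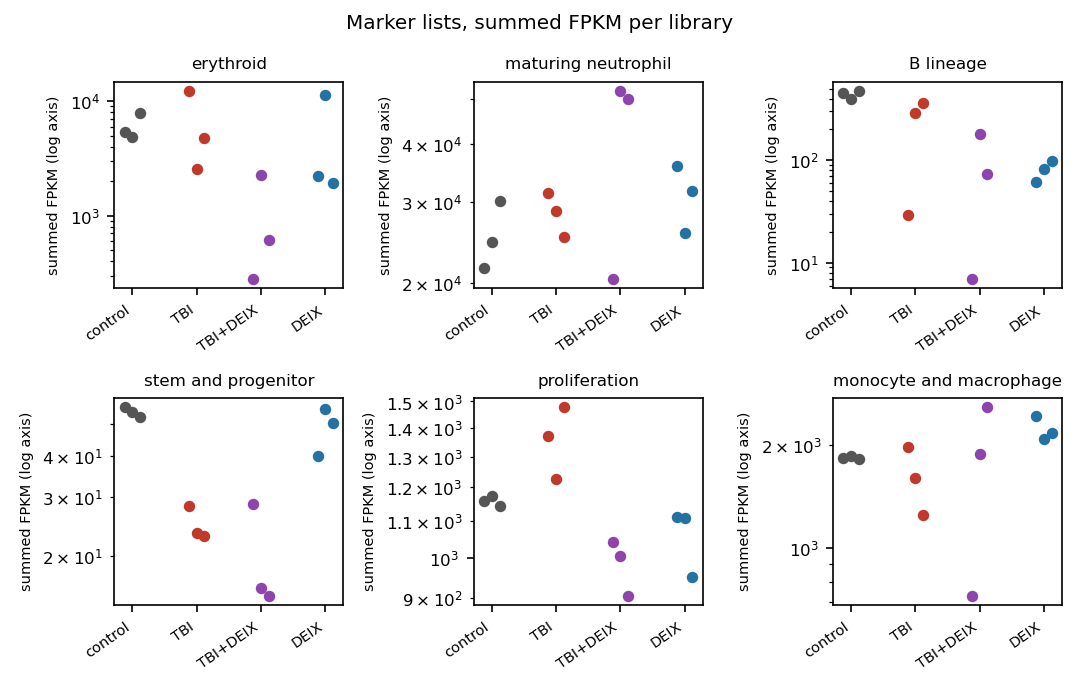
Points are summed FPKM of 6 marker lists in each library, on a log axis, for control, TBI, TBI+DEIX and DEIX. Stem and progenitor sums are lower in all 6 irradiated libraries (at most 28.6) than in all 6 unirradiated ones (at least 40.0), and proliferation sums are lower in both DEIX groups than in control and TBI.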

How the data were processed

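RNA from 12 whole marrow libraries was made into sequencing libraries with a directional mRNA kit, per the labels' protocols. The deposited values are FPKM per gene, which the authors computed; STAR 2.6, Cufflinks 2.2.1 and the mm10 build are named in the submitters' processing notes, and the annotation and strand setting are not given in the sources used here. All 21853 identifiers matched protein-coding genes of GENCODE vM21, which gave symbols and GRCm38 coordinates. FPKM hold no counts, so log2(FPKM + 1) was fitted with limma 3.58.1 in R 4.3.3 (eBayes with a mean-variance trend) as 4 group means over all 12 libraries, with 8 residual degrees of freedom. Genes with at least 1 FPKM in at least 3 libraries were tested, 10994 in all, in 6 comparisons, including the interaction. The fit was also run on simulated data in which all groups had the same spread. The real groups did not, so that run cannot vouch for the calls made here.

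The members and gene lists were chosen with earlier results of these data known. Values in every library are given for p53 target genes called in at least 1 comparison and for 10 set by rule, the others by ranges, and called genes of the further lists by their changes; Btg2, Rrm2b, Fas, Gtse1, Ckap2, Tigar, Polk, Ddb2 and the library values of Sfn and Pml were singled out after their values were seen. Alternatives were other pseudocounts (0.1 and 0.5), filters, scalings, fits and left-out libraries. No 2 libraries held identical values.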

Additional observations from a re-analysis of the deposited data

How the results depend on the processing

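Each result was recomputed under up to 23 alternatives. Of 66 differences of single genes, 4 changed direction, all of them not called: Btg2 in TBI+DEIX against DEIX was 0.49 with array weights and −0.44 to 0.55 with left-out libraries, the highest without TBI+DEIX replicate 1, where it was called (adjusted p = 0.0316). Cdkn1a was 0.10 with array weights and −0.099 to 0.12 with left-out libraries in TBI+DEIX against TBI, above 0 when TBI replicate 3 or TBI+DEIX replicate 1 was left out. In the interaction it was 0.0056 with array weights and −0.17 to 0.0694 with left-out libraries, above 0 when replicate 1 of either DEIX group was left out. Bax in TBI against control was −0.035 to 0.16, below 0 when control replicate 1 or TBI replicate 3 was left out. Of the 20 calls in the 2 further pathway lists, recomputed as alternatives chosen after seeing the data, 13 were lost without at least 1 library and 13 on the TPM scale. Depth limits Gdf15, Eda2r and Phlda3 most. The within-group SD of log2(FPKM + 1), as a root mean square over tested genes, was lowest in control (0.140), followed by TBI (0.226), DEIX (0.236) and TBI+DEIX (0.418), so that the fit shares 1 spread among unequal groups; the cause of the changes below was not tested.

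In TBI against control, where 0 of 32 p53 target genes were called, 1 was on the TPM scale without S100a8, S100a9 and Ngp, 5 in a fit of the compared groups alone, 19 with array weights, and 0 to 5 when 1 library was left out. The TPM scale moved the median change of all genes from 0.00 to −0.12 in TBI+DEIX against TBI and from 0.02 to −0.12 in DEIX against control. In TBI+DEIX against TBI, 3 became 0, 1, 0, 12 and 0 to 7 under TPM, TPM without those genes, compared groups alone, array weights and left-out libraries. In DEIX against control, 0 became 1 with a pseudocount of 0.1 (6.09% of all genes), 4 with the compared groups alone, 12 with array weights and 0 to 4 with left-out libraries. For TBI+DEIX against control, 12 became 7 on the TPM scale, 22 with array weights and 8 to 15 with left-out libraries (8 without control replicate 2 or 3, beside 18.2% and 20.1% of all genes, and 15 without TBI+DEIX replicate 2, beside 28.6%). For TBI+DEIX against DEIX, 3 became 1 with a mean FPKM of at least 5 (1.25%), a filter that left Zmat3 and Phlda3 untested. Over all comparisons, 0 of the 12 calls still tested under that filter were lost. In TBI+DEIX against DEIX, 3 also became 0 on the TPM scale, 1 on it without S100a8, S100a9 and Ngp, 0 with the compared groups alone, 6 with array weights and 0 to 7 with left-out libraries. In the interaction, 0 became 1 with array weights and 0 to 2 with left-out libraries. The array weights ranged from 0.0709 (TBI+DEIX replicate 1) to 11.02 (control replicate 2), and with them 38.4%, 40.8%, 41.0%, 56.3%, 8.62% and 4.84% of all genes were called in these 6 comparisons, in the order given. The TPM scale called 2.3%, 1.43%, 2.57%, 16.2%, 1.14% and 0.255% of all genes, and TPM without those 3 genes 2.68%, 4.48%, 3.81%, 23.2%, 2.25% and 0.237%. The compared groups alone called 12.9%, 0%, 18.7%, 19.8% and 0% of all genes in the first 5. With left-out libraries the all-gene shares were 1.39% to 12.2%, 0.0455% to 25.8%, 1.33% to 21.8%, 18.2% to 38.5%, 0.455% to 8.43% and 0.0364% to 3.01%. Without TBI+DEIX replicate 1, all-gene shares were 12.2%, 25.8%, 21.8%, 38.5%, 8.43% and 3.01%, beside 5, 7, 4, 13, 7 and 2 p53 target genes. Of the 18 calls of p53 target genes, 14 were lost on the TPM scale, 10 without those 3 genes, 9 with the compared groups alone (in TBI+DEIX against control Cdkn1a, Pmaip1 and Mdm4, and all 6 in TBI+DEIX against TBI or DEIX) and 2 without the filter (both of Psrc1). With other pseudocounts, median-of-ratios scaling, array weights or eBayes without trend 0 were lost. The median-of-ratios factors were 0.993 to 1.01, so that scaling could move little and is no check of these calls. The 7 genes apart in both irradiation comparisons became 4 on the TPM scale, an alternative chosen after seeing the data; leaving out a library cannot remove a gene from that count and is no check of it.

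The replicate numbers showed no clear pairing of the libraries. Same-numbered libraries of different groups correlated in their deviations from group means at −0.447 to 0.242, 3 of 18 above 0.1. Of 12 libraries, 2 correlated best with their own number. With 3 libraries per group, these correlations cannot exclude a shared batch or processing order. A fit with the replicate number as a block called 0, 2, 0, 13, 1 and 0 of the p53 target genes in the 6 comparisons, beside 3.44%, 4.31%, 5.82%, 27.3%, 1.64% and 0.182% of all genes; it lost both calls of Psrc1 and those of Zmat3 and Phlda3 in TBI+DEIX against DEIX, and called Trp53 and Tigar in TBI+DEIX against control.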
